A study of Mus musculus with 9 samples.

Results

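The genes described here are Hcrt, Pmch, Avp, Oxt, Pomc, Agrp, Trh, Gal and Fezf1, which are 9 of the 47729 genes in the count files. Of these, 8 encode precursors of neuropeptides made in the hypothalamus, and Fezf1 encodes a zinc finger transcription factor of the forebrain. They were taken by their Ensembl identifiers. They were chosen by measured values, as a group with the results in view, because some of them stood out when single libraries were left out: without the second Dot1l(fl/+) pool, Hcrt, Pmch, Trh and Fezf1 were called in the comparison of Dot1l(fl/+) with Dot1l(+/+). The values of that comparison are therefore given as a description and not as a test.

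Dot1l encodes the histone methyltransferase of H3K79. The study removed it from midbrain dopamine (DA) neurons and compared RNA from dissected midbrain of C57/Bl6 mice at 180 days (P180) that carried 2 (Dot1l(fl/fl)), 1 (Dot1l(fl/+)) or no floxed allele (Dot1l(+/+)). All 3 genotypes, the controls included, also carried Pitx3-Cre/+ and a Rosa-lox-stop-lox-Yfp reporter. Cre came from the Pitx3 locus, which in the brain is active in midbrain DA neurons, so most cells of the tissue keep the floxed part of Dot1l, which is its exon 5. There were 3 libraries per genotype, and according to the methods the tissue of 3 mice went into each. The replicates are therefore pools. The series' design text speaks of sorted cells at E15.75, whereas every library is labelled P180 and dissected midbrain. The midbrain was cut from frozen brain in a series of slices that began at rostral markers, and the labels call the tissue midbrain DA neurons.

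The peptides act as follows. Hcrt (orexins, which keep arousal stable) and Pmch (melanin-concentrating hormone, linked to feeding and sleep) are made by separate neurons of the lateral hypothalamus whose axons reach much of the brain, the midbrain DA area included. Avp (vasopressin) and Oxt (oxytocin) come from magnocellular neurons that project to the posterior pituitary, Pomc (melanocortins and an endorphin) and Agrp (an antagonist of melanocortin receptors) from opposed neurons of the arcuate nucleus, and Trh is the releasing hormone of the thyroid axis. Gal (galanin) is made in many hypothalamic and brainstem neurons. Neuropeptide mRNA lies mostly in the cell body, next to the place where the precursor is cut and packed into granules, and the receptors are made by the target cells.

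The libraries held 16422135 to 28403218 counts, and a count of 3 was worth 0.106 to 0.182 CPM (counts per 1000000 counts of the library, scaled with TMM, a normalization that equalises the bulk of genes between libraries). The targeted gene lay at 80.2, 85.1 and 85.2 CPM in the Dot1l(+/+) pools, at 60.6 to 84.2 CPM in Dot1l(fl/+) and at 73.9 to 82.9 CPM in Dot1l(fl/fl). Counts over the whole gene check the labels little here, since the floxed exon is a small part of it and most cells keep it. DA neuron markers (12 genes) were present in every pool, with summed levels of 773 to 865 CPM in Dot1l(+/+), 630 to 780 CPM in Dot1l(fl/+) and 610 to 645 CPM in Dot1l(fl/fl). Among them, Pitx3 was low, at 0.121 to 0.859 CPM. The pools of Dot1l(fl/+) differed most: the chi-square per degree of freedom between their counts was 15.2 for pools 1 and 2, 16.5 for pools 2 and 3 and 8.26 for pools 1 and 3, against 4.47 to 7.20 within the other genotypes. Nothing in the labels gives a batch.

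The stretches around the start sites of the 4 genes that led to the choice are shown because these genes were high in the same libraries (RefSeq, GRCm38.p6, 250 bases before to 50 bases after the start of the gene, 5′ to 3′ on the strand of the gene). Capitals mark 4 short motifs picked after the sequences had been read, each searched on both strands: TATAAA (the core of a TATA box), its variant CATAAA, the CCAAT box and TGACG (the half-site of a cAMP response element).
Hcrt, chr11:100762882-100763181, - strand: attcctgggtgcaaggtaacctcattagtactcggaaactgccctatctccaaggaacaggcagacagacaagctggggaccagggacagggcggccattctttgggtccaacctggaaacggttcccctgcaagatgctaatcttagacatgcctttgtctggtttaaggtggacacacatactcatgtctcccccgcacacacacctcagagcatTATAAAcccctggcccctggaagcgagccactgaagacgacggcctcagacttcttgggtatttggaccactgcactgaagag
Pmch, chr10:88090822-88091121, + strand: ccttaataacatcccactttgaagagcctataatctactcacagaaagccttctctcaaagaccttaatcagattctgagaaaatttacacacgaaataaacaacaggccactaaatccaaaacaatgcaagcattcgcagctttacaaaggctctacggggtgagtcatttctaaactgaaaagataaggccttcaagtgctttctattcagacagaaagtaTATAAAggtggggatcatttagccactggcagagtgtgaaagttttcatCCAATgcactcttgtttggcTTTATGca
Trh, chr6:92244601-92244900, - strand: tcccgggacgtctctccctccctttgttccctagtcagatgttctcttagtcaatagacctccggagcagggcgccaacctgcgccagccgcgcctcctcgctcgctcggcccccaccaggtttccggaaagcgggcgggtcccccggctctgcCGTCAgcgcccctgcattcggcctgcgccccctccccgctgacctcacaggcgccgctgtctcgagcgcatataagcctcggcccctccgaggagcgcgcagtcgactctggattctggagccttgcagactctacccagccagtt
Fezf1, chr6:23248215-23248514, - strand: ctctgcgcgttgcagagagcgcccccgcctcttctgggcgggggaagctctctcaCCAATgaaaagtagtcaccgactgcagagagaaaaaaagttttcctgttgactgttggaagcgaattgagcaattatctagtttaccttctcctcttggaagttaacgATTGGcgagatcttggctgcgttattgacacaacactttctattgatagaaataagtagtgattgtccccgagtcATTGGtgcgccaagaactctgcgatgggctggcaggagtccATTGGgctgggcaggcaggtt

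Promoters were found for 8 of the 9 members, all but Agrp. TATAAA began 33 bases before the start of Hcrt, 27 before that of Pmch and 25 before that of Pomc, and it was in 13.6% of all 32851 promoters of this length. CATAAA began 27 bases before the start of Oxt and 14 before that of Avp, and its matches in Pmch and Gal lay behind the start. It was in 11.9% of all promoters. CCAAT was in the promoters of Avp, Pmch and Fezf1 (37.4% of all promoters), with 4 matches in Fezf1. TGACG was in those of Trh and Gal (20.8% of all promoters). None of the 4 motifs was in the windows of Hcrt, Pmch, Trh and Fezf1 alike. Only these 4 motifs were searched, and related stretches, such as tataag in the window of Trh, were not counted.

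Avp and Oxt are shown by what their transcripts share, since this bears on their counts. The genes are neighbours on chromosome 2 (GRCm38, GENCODE M21) that point at each other: Oxt lies at chr2:130576173-130577054 on the + strand and Avp at chr2:130580620-130582554 on the - strand, 3565 bases apart. The longest identical run of the transcripts of Avp (577 bases) and Oxt (537 bases) is 127 bases long, from base 144 to base 270 of Avp and from base 156 to base 282 of Oxt. It lies in the part that encodes neurophysin, the carrier of both hormones:
shared run: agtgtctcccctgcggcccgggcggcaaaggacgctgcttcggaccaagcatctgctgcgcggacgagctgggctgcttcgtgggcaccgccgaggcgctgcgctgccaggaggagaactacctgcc
A read that falls inside this run cannot be told apart between both genes, and how such reads were counted is not given in the sources used here, so the counts of Avp and Oxt are uncertain to that extent.

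Hcrt and Pmch, the peptides of the lateral hypothalamus, were the members that varied most between pools. Hcrt (chr11:100761069-100762931, - strand) had 2, 0 and 5 counts in Dot1l(+/+) pools 1 to 3, 413, 2 and 69 counts in Dot1l(fl/+) and 3, 2 and 2 counts in Dot1l(fl/fl). Dot1l(fl/+) pools 1 and 3 were high, at 16.2 and 2.63 CPM, and the other 7 libraries lay between 0 and 0.188 CPM, near the level of 3 counts. Dot1l(fl/+) pool 2, with 0.0707 CPM, lay within the range of the controls, so the genotypes overlapped.

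Pmch (chr10:88091072-88092375, + strand) had 153, 11 and 20 counts in Dot1l(+/+), 2538, 18 and 1301 counts in Dot1l(fl/+) and 25, 18 and 26 counts in Dot1l(fl/fl). In CPM these were 7.24, 0.472 and 0.751 in Dot1l(+/+), 99.4, 0.636 and 49.6 in Dot1l(fl/+), whereas the Dot1l(fl/fl) pools had 1.00, 0.712 and 1.58. The same Dot1l(fl/+) pools as for Hcrt were high, pool 2 lay among the controls, and control pool 1 stood above the other controls. Within Dot1l(fl/+) the highest pool was 156 times the lowest, within Dot1l(+/+) it was 15.3 times and within Dot1l(fl/fl) 2.22 times. Pmch overlaps Parpbp on the opposite strand. Parpbp had 10 to 15 counts in every library and was not high where Pmch was.

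The proportion of both lateral hypothalamic transcripts differed between the high pools. Of the counts on Hcrt and Pmch together, Hcrt held 14.0% in Dot1l(fl/+) pool 1 (413 of 2951, exact 95% Clopper-Pearson interval 12.8 to 15.3%) and 5.04% in pool 3 (69 of 1370, interval 3.94 to 6.33%). These intervals cover counting error only, and they did not overlap. In Dot1l(+/+) pool 1, where Pmch was above the other controls, Hcrt held 1.29% (2 of 155, interval 0.157 to 4.58%). In the other 6 libraries the sum was 11 to 28 counts and the intervals were wide. Of these, Dot1l(+/+) pool 3 had 20% (5 of 25, interval 6.83 to 40.7%), above the intervals of Dot1l(fl/+) pool 3 and Dot1l(+/+) pool 1.

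The magnocellular peptides did not follow one pattern. Avp had 1, 2 and 56 counts in Dot1l(+/+), 38, 4 and 6 counts in Dot1l(fl/+) and 2, 5 and 4 counts in Dot1l(fl/fl). Its highest value was therefore in a control, Dot1l(+/+) pool 3 with 2.10 CPM, followed by Dot1l(fl/+) pool 1 with 1.49 CPM, while every other library lay between 0.0473 and 0.243 CPM. Oxt had 1, 2 and 3 counts in Dot1l(+/+), 22, 3 and 5 counts in Dot1l(fl/+) and 1, 0 and 0 counts in Dot1l(fl/fl). Only Dot1l(fl/+) pool 1, with 0.862 CPM, was clearly above the level of 3 counts.
The high libraries of both genes differed in their mixture. Oxt made up 36.7% of the counts of the pair in Dot1l(fl/+) pool 1 (22 of 60, exact interval 24.6 to 50.1%) and 5.08% in Dot1l(+/+) pool 3 (3 of 59, interval 1.06 to 14.1%).

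Pomc and Agrp, the opposed peptides of the arcuate nucleus, were low and comparatively even. Pomc (chr12:3954951-3960642, + strand) lay at 1.13, 0.730 and 1.69 CPM in Dot1l(+/+), at 2.12, 1.31 and 2.14 CPM in Dot1l(fl/+) and at 0.760, 0.870 and 1.27 CPM in Dot1l(fl/fl), from 17 to 56 counts per library. Its Dot1l(fl/+) pools were all above the Dot1l(fl/fl) pools and overlapped with the controls. Agrp (chr8:105566698-105637393, - strand) had 0 to 4 counts in every library, so no order between genotypes can be read, and its annotated span crosses several other genes.

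Trh (chr6:92242061-92244650, - strand) lay at 0.946, 0.301 and 1.01 CPM in Dot1l(+/+), at 4.62, 0.601 and 3.21 CPM in Dot1l(fl/+) and at 0.480, 0.435 and 0.667 CPM in Dot1l(fl/fl), from 7 to 118 counts per library. As for Pmch, Dot1l(fl/+) pools 1 and 3 were the highest libraries and pool 2 lay inside the range of the controls. Gal (chr19:3409915-3414544, - strand) lay at 1.04, 0.687 and 0.526 CPM in Dot1l(+/+), at 2.66, 0.777 and 1.22 CPM in Dot1l(fl/+) and at 0.840, 0.949 and 1.09 CPM in Dot1l(fl/fl). Only Dot1l(fl/+) pool 1 stood clearly apart from the rest.

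Fezf1 (chr6:23245044-23248362, - strand), which in the adult brain is expressed in the ventromedial hypothalamus, had 0, 0 and 1 counts in Dot1l(+/+), 39, 1 and 22 counts in Dot1l(fl/+) and 0, 0 and 1 counts in Dot1l(fl/fl). It was thus present at 1.53 and 0.839 CPM in Dot1l(fl/+) pools 1 and 3 and at or under 1 count in each of the other 7 libraries. It is the sole member that is no secreted peptide, and its values separated the libraries as Hcrt did.

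**Figure D1:**
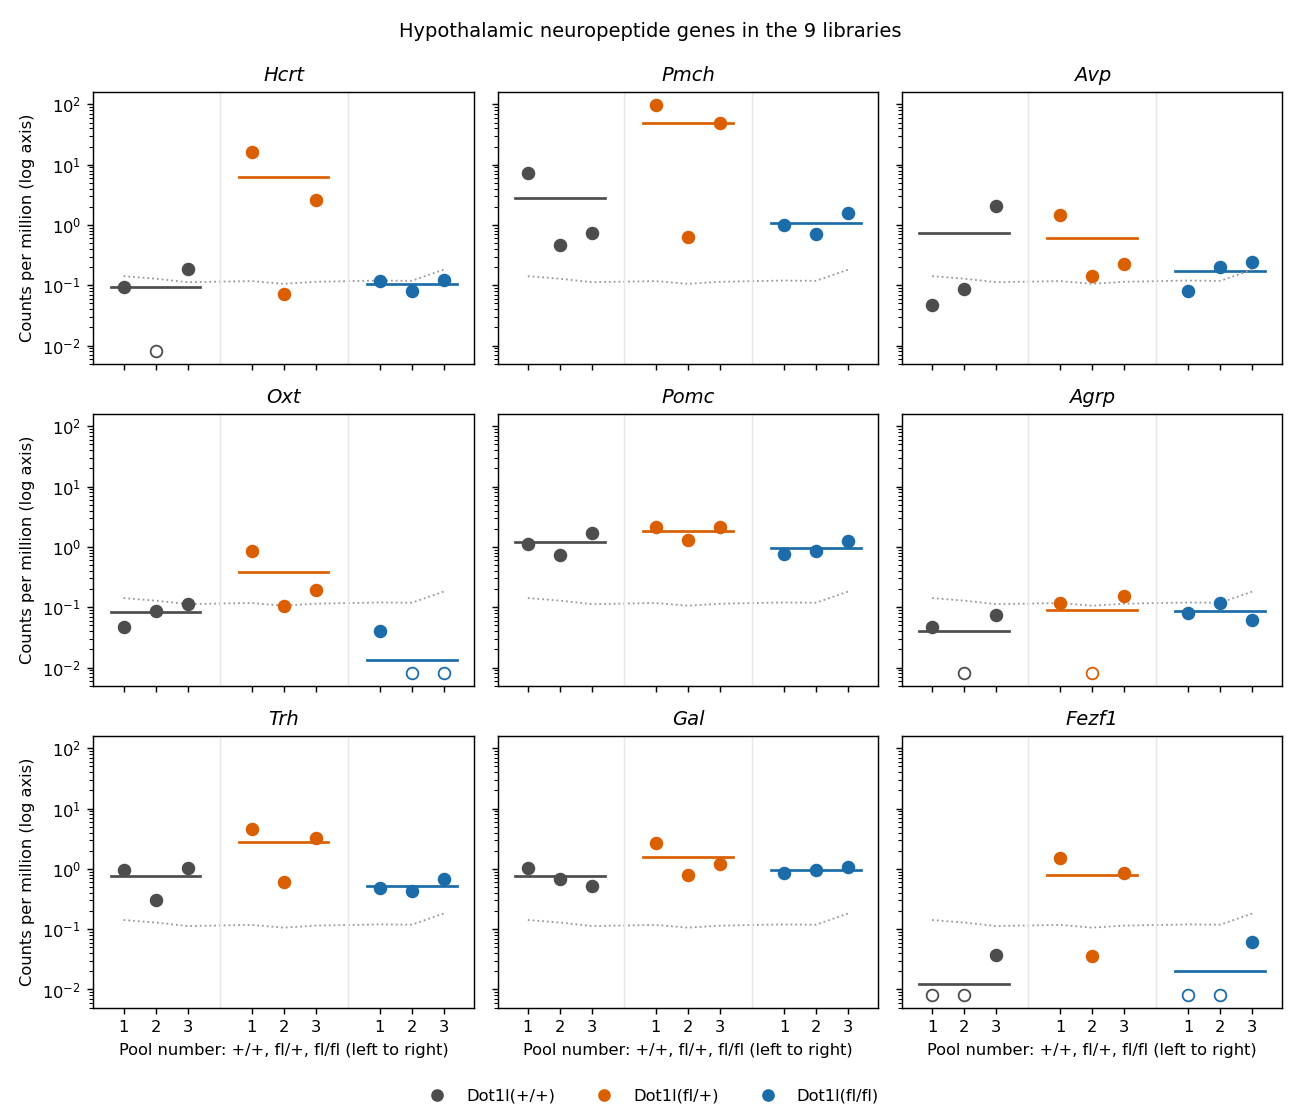
Level of each member in the 9 libraries, in CPM on a log axis, by genotype and pool number. Points are pools, bars the mean of a genotype, the dotted line the level of 3 counts, and open points on the lower edge stand for 0 counts. Dot1l(fl/+) pools 1 and 3 are the highest libraries for Hcrt, Pmch, Trh and Fezf1, whereas Avp is highest in Dot1l(+/+) pool 3.

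Over the 9 members, the highest library was Dot1l(fl/+) pool 1 for 6, Dot1l(fl/+) pool 3 for 2 (Pomc and Agrp) and Dot1l(+/+) pool 3 for 1 (Avp). Within Dot1l(fl/+), pool 2 was the lowest for 9 of 9 members, and it was the lowest for 35.8% of the 17671 genes kept by the filter. Since 4 of the members were called in a fit without that pool, this count describes the choice. As in any bulk tissue, more cells of a type in the pool and more RNA per cell cannot be told apart.

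The comparison of Dot1l(fl/+) with Dot1l(+/+) asks what the loss of 1 Dot1l allele in DA neurons does. The filter on low counts kept Pmch, Trh, Pomc and Gal and dropped Hcrt, Avp, Oxt, Agrp and Fezf1. The fitted log2 fold changes (edgeR) were 4.21 for Pmch (SE 1.10), 1.87 for Trh (SE 0.57), 1.06 for Gal (SE 0.42) and 0.62 for Pomc (SE 0.31). With all 9 libraries, 0 of the 4 passed an adjusted p of 0.05 with edgeR. DESeq2 gave an adjusted p for Pmch and Hcrt alone of the members, and neither passed. The edgeR fit called 0% of the 17671 genes (1483 genes had an unadjusted p under 0.05). No member had genotypes without overlap, which held for 13.3% of the genes kept. Mean levels over 3 pools were 49.9 ± 49.4 CPM (SD, n = 3) against 2.82 ± 3.83 for Pmch, 6.29 ± 8.66 against 0.0941 ± 0.0939 for Hcrt, 2.81 ± 2.04 against 0.754 ± 0.394 for Trh and 0.801 ± 0.747 against 0.0125 ± 0.0217 for Fezf1. Among the Dot1l(fl/+) pools the SD was above the mean for Hcrt and below it for Pmch, Fezf1 and Trh.

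Without Dot1l(fl/+) pool 2 the same fit, now over 17891 genes, called 5 genes (0.0279%). Those were Hcrt with a log2 fold change of 6.50 (SE 0.80), Fezf1 with 5.94 (SE 0.79), Pmch with 4.80 (SE 0.56), Trh with 2.36 (SE 0.34) and Abhd12b, a gene that is no member, with 1.27 (SE 0.17). This is the result that led to the choice. Hcrt and Fezf1, which the filter dropped with all 9 libraries, passed it here through the pools where they were high. In Dot1l(fl/+) pools 1 and 3 Hcrt had 413 and 69 counts and Fezf1 39 and 22. When instead Dot1l(fl/+) pools 1 and 3 were left out together, a fit added after the data had been seen, Dot1l(fl/+) was left with 1 pool, assumed to vary like the other genotypes. The log2 fold change of Pmch was then -2.09 (SE 1.24) and that of Trh was -0.33, values set by which pools were dropped. Leaving out any other library alone gave 3.21 (without Dot1l(fl/+) pool 1) to 6.32 (without Dot1l(+/+) pool 1) for Pmch and 1.31 to 2.18 for Trh, with no member called. For Gal the value was 0.42 without Dot1l(fl/+) pool 1, and for Pomc it was 0.38 without Dot1l(+/+) pool 2 and 0.99 without Dot1l(+/+) pool 3.

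The pools of a genotype differed more for Pmch and Trh than the trend for genes of their level, which is again a description, since the pools that chose the members enter the values. The SD of log2 CPM within genotypes was 2.52 for Pmch, the ninth largest of 17671, against a median of 0.126 over all genes kept. It was 0.999 for Trh (rank 65), 0.563 for Gal (rank 669) and 0.445 for Pomc (rank 1366). The biological coefficient of variation that edgeR estimated was 87.1% for Pmch and 45.6% for Trh, whereas the trend for genes of their level was 10.2% and 18.3%. For Gal it was 30.9% against 19.6%, and for Pomc 22.5% against 18.5%.

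Dot1l(fl/fl) was compared with Dot1l(+/+) to ask what the loss of both alleles does. In the fit that chose the members the Dot1l(fl/fl) pools entered only through the estimate of the spread, and the controls are the same pools. The log2 fold changes were -1.36 for Pmch (SE 1.58), -0.56 for Trh (SE 0.72), -0.34 for Pomc (SE 0.35) and 0.36 for Gal (SE 0.45). The edgeR adjusted p was 0.999 for each, 0 of the 4 had an unadjusted p under 0.05, and the adjusted p of DESeq2 on all 9 libraries was 1 for each. Over all 17671 genes edgeR called 0%, with 2.21% higher and 1.72% lower at an unadjusted p under 0.05. A difference was thus not detectable, and the SE of Pmch leaves room for changes of several fold in both directions. The value of Pmch rested on 1 control: without Dot1l(+/+) pool 1 its log2 fold change was 0.75 (SE 2.16). That of Pomc was 0.026 without Dot1l(+/+) pool 3.

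The 5 members dropped by the filter were compared between Dot1l(fl/fl) and Dot1l(+/+) with an exact two-sided permutation test of the mean CPM, which with 3 against 3 pools cannot go below 0.1. The exact p was 0.8 for Hcrt (0.107 ± 0.024 against 0.0941 ± 0.0939 CPM, SD, n = 3), 0.9 for Avp (0.173 ± 0.084 against 0.746 ± 1.18 CPM) and 0.2 for Agrp (0.0864 ± 0.0295 against 0.0408 ± 0.0380 CPM). It was 1 for Fezf1, with 1 count in each genotype. For Oxt the exact p was 0.1, the smallest possible, with 1 count over all Dot1l(fl/fl) pools and 6 over the controls. Oxt had at most 3 counts in these libraries, so the depth does not allow a level to be given, and a lack of overlap between both genotypes held for 10.3% of the genes kept.

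Within Dot1l(fl/fl) the highest pool was 2.22 times the lowest for Pmch, 1.53 times for Trh, 1.68 times for Pomc and 1.30 times for Gal. For Pmch, Trh and Gal this was the smallest ratio of the 3 genotypes, and for Pomc the smallest was 1.63, in Dot1l(fl/+). Hcrt had 2 or 3 counts in each of the Dot1l(fl/fl) pools.

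Between Dot1l(fl/fl) and Dot1l(fl/+), which shares the Dot1l(fl/+) pools that chose the members, the log2 fold changes were -5.57 for Pmch (SE 1.27), -2.43 for Trh (SE 0.61), -0.97 for Pomc (SE 0.33) and -0.70 for Gal (SE 0.41), and they are given as a description. edgeR called 0% of all genes in this comparison, whereas DESeq2 on all 9 libraries called 11 genes, Trh the sole member among them, and on the 2 genotypes 8 genes, again with Trh. With the replicate number as a block, edgeR called Pmch (log2 fold change -5.35, SE 0.68), the sole member, along with Ttr and Clic6. The pools did not overlap for Pomc and Oxt, as for 11.1% of the genes kept.

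**Figure D2:**
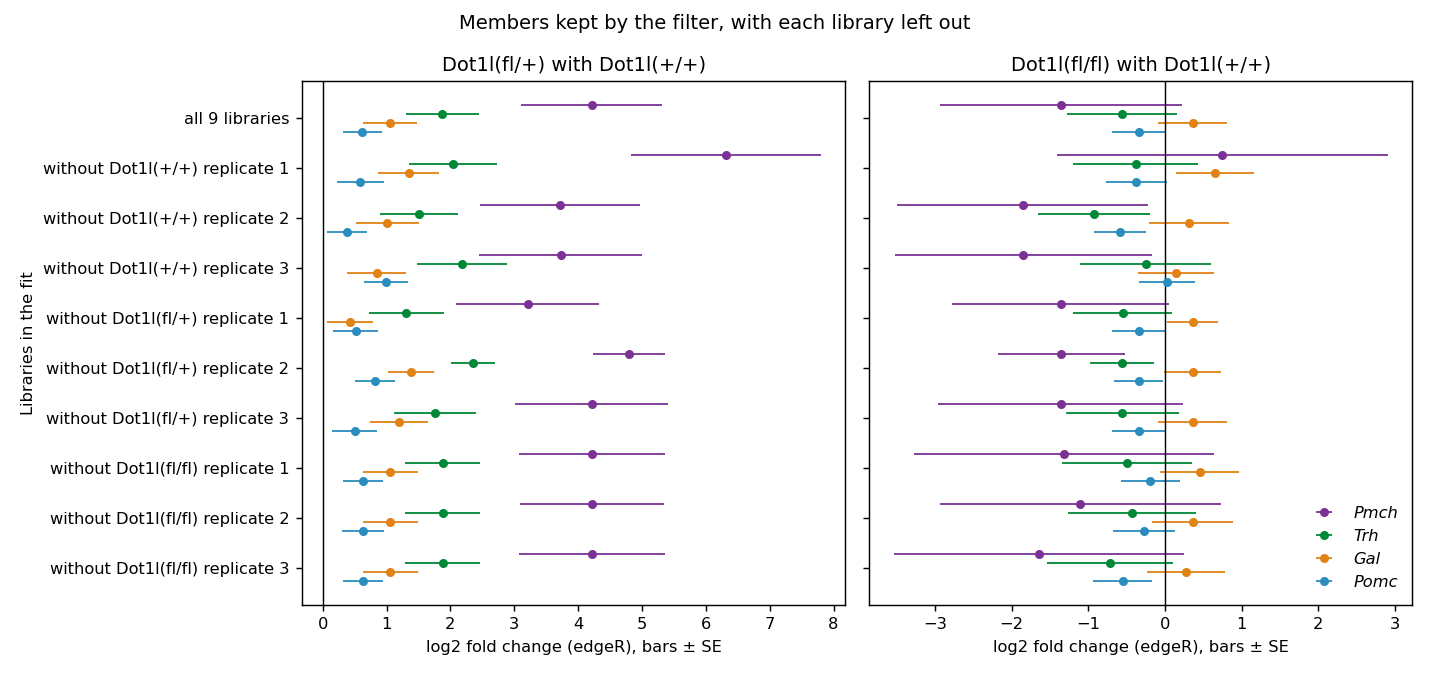
Fitted log2 fold changes of Pmch, Trh, Gal and Pomc (points, with bars of 1 SE) with all 9 libraries and with each library left out in turn, for Dot1l(fl/+) with Dot1l(+/+) (left) and Dot1l(fl/fl) with Dot1l(+/+) (right). On the left the bars of Pmch and Trh are shortest without Dot1l(fl/+) replicate 2, and on the right Pmch crosses to 0.75 without Dot1l(+/+) replicate 1.

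Levels of different genes were compared per length, as CPM per kilobase of exon. In the controls Pmch had the highest mean level, 3.76 ± 5.11 CPM per kb, followed by Avp with 1.29 ± 2.04, Gal with 0.953 ± 0.334, Pomc with 0.899 ± 0.366 and Trh with 0.545 ± 0.285 (SD, n = 3). The pools of these neighbours overlapped, so their order is not settled. All of the Trh pools lay above the pools of Oxt (0.153 ± 0.061), and Hcrt, Agrp and Fezf1 lay below at means of 0.126, 0.0403 and 0.0052. In Dot1l(fl/fl) the order was Pmch (1.46 ± 0.59), Gal (1.22 ± 0.16), Pomc (0.734 ± 0.205), Trh (0.381 ± 0.089) and Avp (0.301 ± 0.146), and there Gal lay above Pomc and Pomc above Trh in every pool. With the longest transcript as length in place of all exons, Gal and Pomc overlapped (lowest Gal pool 1.07, highest Pomc pool 1.22 CPM per kb) and Pomc still lay above Trh. In Dot1l(fl/+) Hcrt held the second place, against the seventh in the controls, with 8.40 ± 11.6 CPM per kb behind Pmch with 66.6 ± 65.9, and no pair of neighbours was free of overlap.

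For each member kept by the filter, the 3 genes with the most similar pattern were sought among 15397 genes with a mean of at least 1 CPM, by the root mean square difference of log2 CPM, each centred on its own mean, over the 9 libraries. For Pmch these were Hcrt (1.08), Trh (1.63) and Isl1 (2.09), where the pattern of Pmch itself spread by 2.66 around its mean. For Trh they were Isl1 (0.618), Calcr (0.676) and Pomc (0.716), against its own spread of 1.15. Hcrt reached a mean of 1 CPM only through its high Dot1l(fl/+) pools, with 16.2 and 2.63 CPM in pools 1 and 3. In the other libraries Hcrt lay at 0 to 0.188 CPM. Hcrt, Pmch and Trh were among the genes that led to the choice, so their likeness describes the choice. Isl1, a LIM homeodomain transcription factor, lay at 2.82, 0.565 and 2.06 CPM in Dot1l(fl/+) pools 1 to 3 and at 0.514 to 1.40 CPM elsewhere. Calcr, the calcitonin receptor, lay at 3.13, 0.848 and 3.51 CPM in the same pools and at 0.949 to 2.07 CPM elsewhere.
For Pomc the most similar genes were Hdc (0.187), Rpl26 (0.282) and 1700028E10Rik (0.299), against its own spread of 0.520. Hdc, the enzyme that makes histamine, lay at 4.54, 3.31 and 6.54 CPM in Dot1l(+/+), at 6.54, 4.66 and 10.3 CPM in Dot1l(fl/+) and at 3.60, 3.32 and 5.70 CPM in Dot1l(fl/fl). For Gal they were Hspa1b (0.319), Pgr15l (0.325) and Ccdc138 (0.340), against its own spread of 0.576, and each had its highest value in Dot1l(fl/+) pool 1. The values are descriptions over 9 libraries, chosen out of many genes.

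Other peptides of the hypothalamus were taken from a list of 14 genes, 13 of which were matched and 7 kept by the filter. In Dot1l(fl/+) with Dot1l(+/+), 0 passed an adjusted p of 0.05 with edgeR, and at an unadjusted p under 0.05 3 were higher (Cartpt, Npy and Pdyn) and 0 lower, against 4.3% higher and 4.09% lower over all genes. The median log2 fold change of the list was 0.28, and that of all genes -0.0034. The most abundant were Cartpt (satiety and stress peptide) with 24.6 to 36.7 CPM in the controls and 33.8 to 36.5 CPM in Dot1l(fl/+), Pdyn (dynorphin precursor) with 10.1 to 11.9 and 10.6 to 18.2 CPM, and Npy with 5.62 to 7.14 and 7.13 to 9.54 CPM. In Dot1l(fl/fl) with Dot1l(+/+), 0 passed and 2 were higher at an unadjusted p under 0.05 (Cartpt and Npy), against 2.21% higher and 1.72% lower over all genes. Against Dot1l(fl/+) 0 passed that level, where 3.6% of all genes were higher and 2.87% lower. Pdyn was high in the same pools as Pmch, at 17.5 CPM in Dot1l(fl/+) pool 1 and 18.2 in pool 3 against 10.6 in pool 2. Cartpt was nearly even in these pools, with 36.5, 33.8 and 35.4 CPM. Vip (vasoactive intestinal peptide), named after its values had been seen, went the other way, at 4.50, 10.3 and 3.82 CPM in pools 1 to 3 and at 5.82 to 6.67 CPM elsewhere. Npy was also highest of its genotype in pool 2, with 7.13, 9.54 and 8.32 CPM, as was Crh with 1.76, 2.51 and 2.37 CPM. Of the 7 peptide genes kept, pool 2 was the lowest of Dot1l(fl/+) for 3 (Cartpt, Pdyn and Tac2). Npvf, a low peptide gene of the dorsomedial hypothalamus named here after its values had been seen, lay at 0.392 and 0.611 CPM in pools 1 and 3 and at 0 to 0.113 CPM in the other 7 libraries.

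The hypothalamic transcription factors and Hdc formed a list of 15 genes, all matched, 8 of them kept. None passed in any of the 3 comparisons with edgeR. At an unadjusted p under 0.05, 0 were higher and 2 lower (Lhx9 and Foxb1) in Dot1l(fl/+) with Dot1l(+/+), against 4.3% and 4.09% of all genes, and the median log2 fold change was -0.22. In Dot1l(fl/fl) with Dot1l(+/+) 0 were higher and 1 lower (Tbx3), against 2.21% and 1.72% of all genes. Between Dot1l(fl/fl) and Dot1l(fl/+) 1 was higher in the former (Lhx9) and 2 were lower (Hdc and Nkx2-1), against 3.6% and 2.87%. Of the 8 genes kept, pool 2 was the lowest of Dot1l(fl/+) for 7, all but Foxb1, and it was the lowest for 35.8% of all genes kept. The most abundant were Lhx9, Foxb1 and Six3. In Dot1l(fl/+) pools 1 to 3 Lhx9 lay at 31.2, 28.6 and 29.1 CPM, Foxb1 at 7.52, 7.63 and 8.62 CPM and Six3 at 8.03, 5.72 and 7.33 CPM. Elsewhere they lay at 33.7 to 37.8, 7.57 to 11.04 and 7.21 to 9.19 CPM.
Some low genes of the list showed the members' pattern and others did not, and they are named after their values had been seen. Rax was highest in a Dot1l(+/+) pool (7 counts, 0.263 CPM) and Six6 in a Dot1l(fl/fl) pool (3 counts, 0.182 CPM). In Dot1l(fl/+) Rax reached at most 0.118 CPM and Six6 at most 0.0763 CPM. Nr5a1, which like Fezf1 marks the ventromedial nucleus, was at 0.588 and 0.458 CPM in Dot1l(fl/+) pools 1 and 3 and had 0 counts in each of the other 7 libraries, where a count of 0 allows up to 0.106 to 0.182 CPM. Bsx, a homeobox gene of the arcuate and dorsomedial nuclei, lay at 0.627 and 0.534 CPM in these pools and at 0.043 to 0.263 CPM elsewhere, and Otp at 2.27 and 2.25 CPM against 0.730 to 1.48 CPM.

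**Figure D3:**
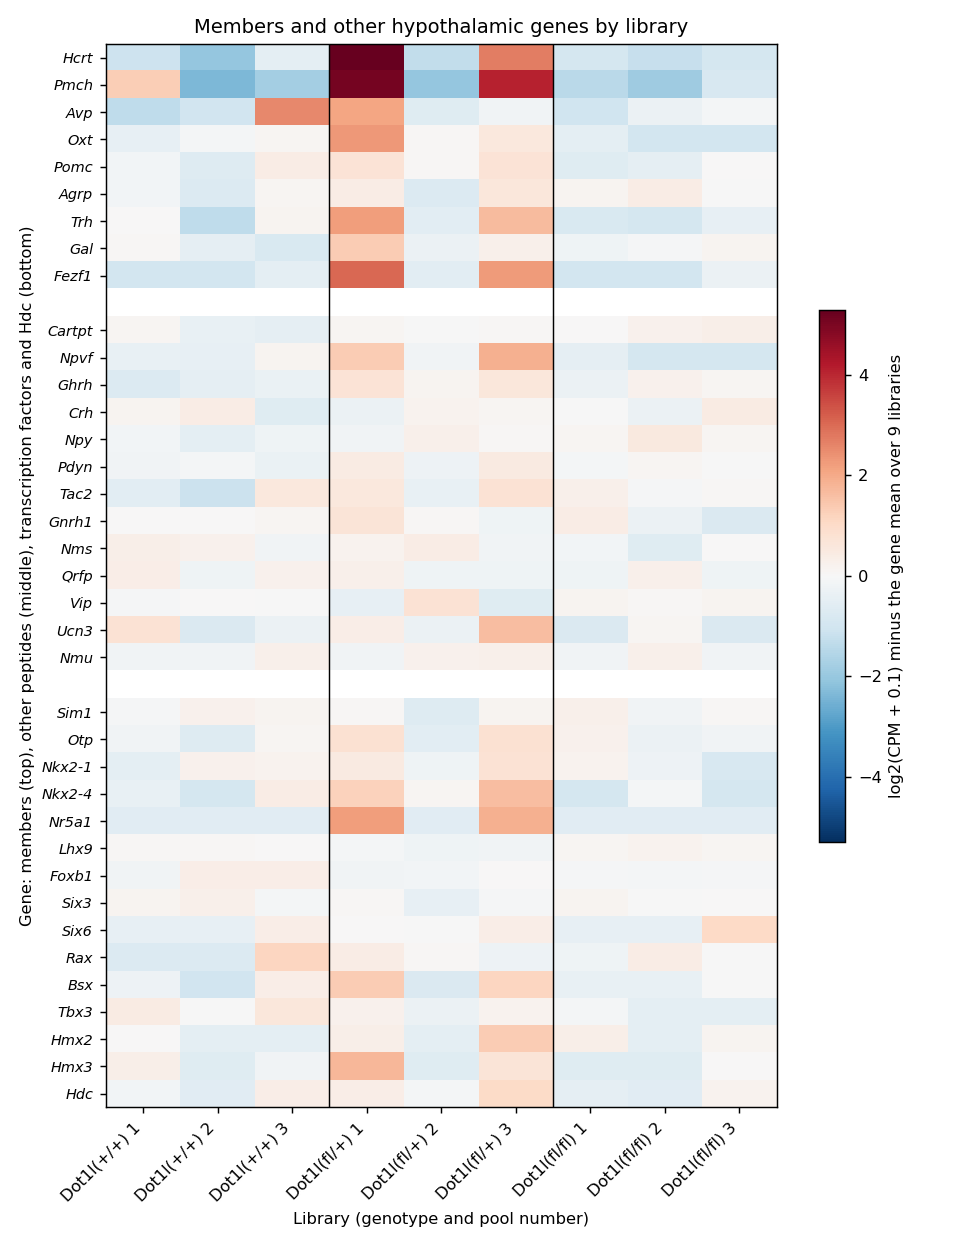
Members (top), other hypothalamic peptides (middle), and hypothalamic transcription factors with Hdc (bottom) in the 9 libraries, as log2(CPM + 0.1) minus the mean of the gene over the libraries, red above and blue below. Hcrt, Pmch, Trh, Fezf1, Npvf, Nr5a1 and Bsx are red in Dot1l(fl/+) 1 and 3 and not in Dot1l(fl/+) 2, whereas Cartpt and Lhx9 are nearly even within Dot1l(fl/+).

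The receptors of the member peptides, made by the cells that receive the signal, differed less between pools. Of 17 receptor genes 16 were matched and 10 kept. Their summed level was 57.6, 52.8 and 59.9 CPM in Dot1l(fl/+) pools 1 to 3, against 53.2 to 60.0 CPM in Dot1l(+/+) and 52.4 to 55.9 CPM in Dot1l(fl/fl), so pool 2 was again the lowest of its genotype but lay close to the other genotypes. Among the 10 genes kept, pool 2 was the lowest of Dot1l(fl/+) for 5 (Trhr, Trhr2, Oxtr, Mc3r and Galr1), pool 1 for 3 (Hcrtr2, Mchr1 and Mc4r) and pool 3 for 2 (Hcrtr1 and Avpr1a). The melanocortin receptor Mc3r, named after its values had been seen, lay at 2.12, 0.389 and 1.18 CPM in Dot1l(fl/+) pools 1 to 3, against 0.789 to 1.27 CPM elsewhere. The oxytocin receptor Oxtr lay at 8.81, 5.86 and 8.93 CPM in these pools and at 6.31 to 8.18 CPM elsewhere. In Dot1l(fl/+) with Dot1l(+/+) 0 passed with edgeR, and at an unadjusted p under 0.05 2 were higher (Galr1 and Mc4r) and 1 lower (Trhr), where 4.3% of all genes were higher and 4.09% lower. The median log2 fold change was 0.18. Against either of the other genotypes, 0 had an unadjusted p under 0.05 in Dot1l(fl/fl), where 2.21% of all genes were higher and 1.72% lower than in Dot1l(+/+), and 3.6% and 2.87% than in Dot1l(fl/+). The most abundant were Trhr (10.3 to 17.8 CPM over the 9 libraries), Mchr1 (7.95 to 11.2 CPM) and Hcrtr2 (6.88 to 9.58 CPM). Of the orexin receptors, Hcrtr1 lay at 8.50, 7.14 and 7.10 CPM in Dot1l(fl/+) pools 1 to 3, where Hcrt ran from 0.0707 to 16.2 CPM. The vasopressin receptor Avpr2 had 0 counts in every library.

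The shared machinery of peptide neurons differed little between libraries as a sum, to which Cpe contributes most. All 15 genes for prohormone cleavage, dense-core granules and breakdown of TRH were matched and kept, with summed levels of 5159 to 5340 CPM in Dot1l(+/+), 5357 to 5548 CPM in Dot1l(fl/+) and 5276 to 5603 CPM in Dot1l(fl/fl). At an unadjusted p under 0.05, 1 was higher (Scg5, a chaperone of the convertase PC2) in Dot1l(fl/+) with Dot1l(+/+), 1 was higher (Chgb) in Dot1l(fl/fl) with Dot1l(+/+), and 1 was lower (Vgf) in Dot1l(fl/fl) with Dot1l(fl/+), at the same shares over all genes as given for the peptides, and 0 passed an adjusted p of 0.05 with edgeR. The most abundant, carboxypeptidase E (Cpe), lay at 2144 to 2392 CPM over all libraries, followed by Scg2 with 475 to 533 and Cadps with 427 to 469 CPM. Single genes varied more: Pcsk1n, an inhibitor of prohormone convertase named after its values had been seen, ran from 238 to 382 CPM over the libraries.

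Markers of tissue that borders on the midbrain moved with the members in part, and their part in the members' levels was not tested. The 7 thalamus markers, led by Tcf7l2 and Prkcd, summed to 431, 284 and 494 CPM in Dot1l(fl/+) pools 1 to 3, against 324 to 377 CPM in Dot1l(+/+) and 357 to 398 CPM in Dot1l(fl/fl), so that pools 1 and 3 were the highest libraries and pool 2 the lowest. Of these, 2 were higher at an unadjusted p under 0.05 in Dot1l(fl/+) with Dot1l(+/+) (Gbx2 and Rgs16), against 4.3% of all genes. The 5 subthalamic and mammillary markers summed to 28.4, 23.9 and 33.9 CPM in Dot1l(fl/+), against 26.8 to 27.9 CPM in Dot1l(+/+) and 20.8 to 27.2 CPM in Dot1l(fl/fl). The 5 choroid plexus markers, led by Ttr and Kl, summed to 96.3, 161 and 555 CPM in Dot1l(fl/+), against 54.1 to 138 CPM in Dot1l(+/+) and 28.2 to 35.6 CPM in Dot1l(fl/fl). Pool 3 was the highest library for each of the 5, while pool 1, where Hcrt and Pmch were highest, lay within the controls. At an unadjusted p under 0.05, 3 of the 5 were higher in Dot1l(fl/+) than in Dot1l(+/+) (Ttr, Kl and Folr1), 2 were lower in Dot1l(fl/fl) than in Dot1l(+/+) (Ttr and Kcnj13), and 5 were lower in Dot1l(fl/fl) than in Dot1l(fl/+), against 4.3%, 1.72% and 2.87% of all genes.
The 12 DA neuron markers, led by Aldh1a1 and Slc6a3, summed to 757, 780 and 630 CPM in Dot1l(fl/+) pools 1 to 3 and did not separate pools 1 and 3 from pool 2. At an unadjusted p under 0.05, 4 of the 12 were lower in Dot1l(fl/+) than in Dot1l(+/+) (Ddc, Ret, Slc18a2 and Slc6a3), 10 were lower in Dot1l(fl/fl) than in Dot1l(+/+), and 7 were lower in Dot1l(fl/fl) than in Dot1l(fl/+), against 4.09%, 1.72% and 2.87% of all genes. With edgeR on all 9 libraries 0 passed an adjusted p of 0.05, whereas in Dot1l(fl/fl) with Dot1l(+/+) Th, Slc6a3 and Slc18a2 were called lower by DESeq2 on all 9 libraries and by edgeR on the 2 genotypes. None of the markers of these lists was at 0 in a whole genotype.

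The markers of other cells followed several patterns. Dot1l(fl/+) pool 2 had the lowest sum of its genotype for the pituitary, oligodendrocyte and endothelial lists, as it had for the members. In pools 1 to 3 these were 0.392, 0.106 and 0.611 CPM for the pituitary list and 166, 159 and 171 CPM for the endothelial list. For the cortical, serotonin, astrocyte and microglia lists pool 2 had the highest sum of its genotype. The 8 anterior pituitary markers, which bear on Pomc because the pituitary makes it, summed to 0.106 to 0.611 CPM in 8 of the libraries and to 7.95 CPM in Dot1l(fl/fl) pool 3, from Prl (5.88 CPM) and Gh (1.76 CPM). Pomc was at 1.27 CPM there. Fshb had 0 counts in every library. The 8 cortex and hippocampus markers, led by Prox1 and Cux2, summed to 300.2 to 352 CPM in Dot1l(+/+), 302 to 312 CPM in Dot1l(fl/+) and 320 to 359 CPM in Dot1l(fl/fl). The 4 serotonin neuron markers, led by Gata3 and Tph2, summed to 20.4, 25.4 and 11.2 CPM in Dot1l(fl/+) pools 1 to 3, against 14.0 to 21.5 CPM in the other genotypes. The 4 oligodendrocyte markers summed to 8658, 7986 and 9150 CPM in Dot1l(fl/+) and 7978 to 8866 CPM elsewhere, and the 4 astrocyte markers, led by Slc1a3 and Aqp4, to 1019, 1237 and 1012 CPM against 1049 to 1213 CPM. The 4 microglia markers, led by Csf1r and Cx3cr1, lay between 187 and 223 CPM and the 3 endothelial markers, led by Flt1 and Cldn5, between 157 and 171 CPM over all libraries. Of the subthalamic and mammillary, cortical, serotonin, glial and endothelial markers, those with an unadjusted p under 0.05 were Mog and Aldh1l1 (higher) in Dot1l(fl/+) with Dot1l(+/+), Neurod6 and Csf1r (higher) in Dot1l(fl/fl) with Dot1l(+/+), and Prox1 (higher), Mag, Mbp and Lmx1a (lower) in Dot1l(fl/fl) with Dot1l(fl/+). All markers of these lists were tested except Fev of the serotonin list, and the shares over all genes were 4.3% higher and 4.09% lower, 2.21% and 1.72%, and 3.6% and 2.87% in these comparisons in turn.

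**Figure D4:**
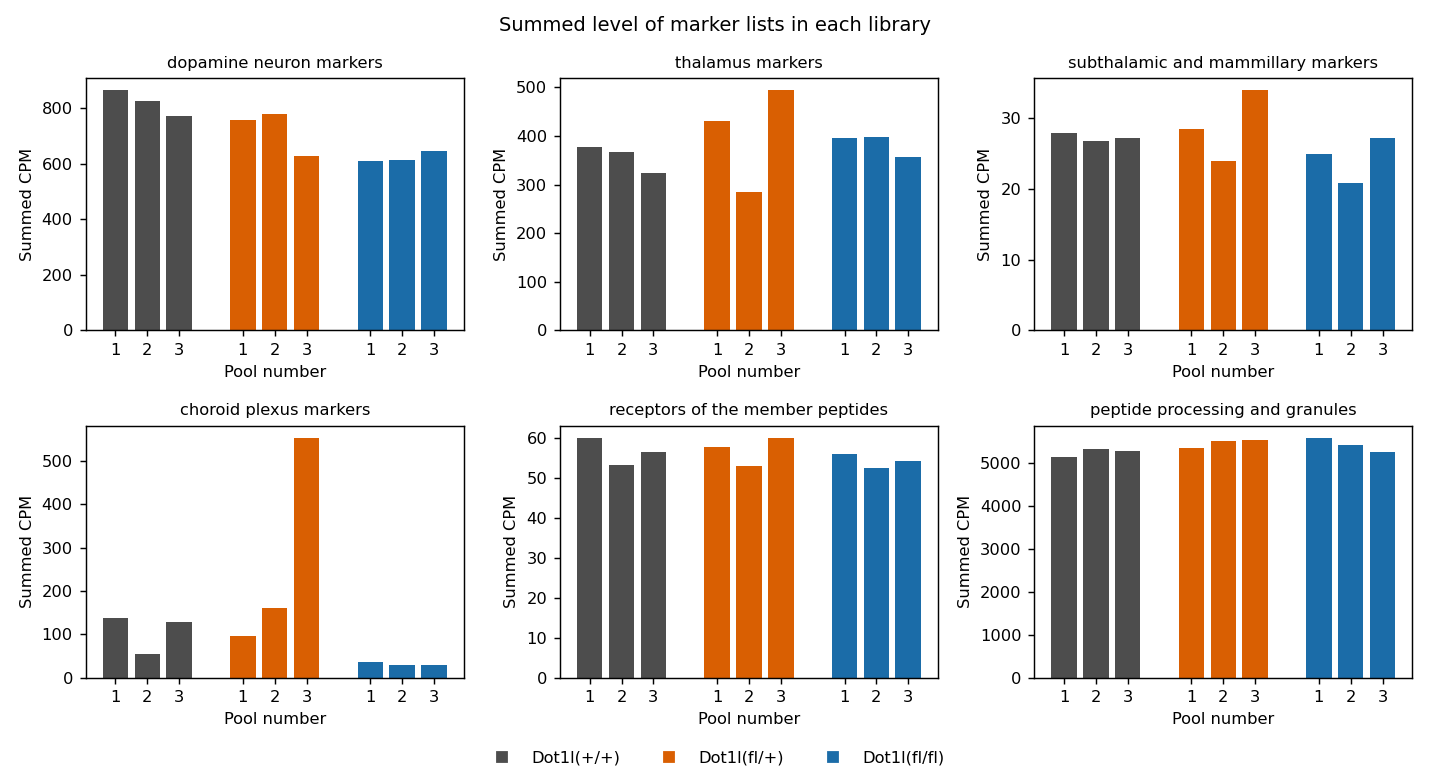
Summed CPM of 6 gene lists in each library, by genotype and pool number (bars start at 0, 1 bar per pool, no error). Thalamus markers are highest in Dot1l(fl/+) pools 1 and 3 (431 and 494 CPM) and lowest in pool 2 (284 CPM), choroid plexus markers stand out in Dot1l(fl/+) pool 3 (555 CPM), and the receptors of the peptides and the processing genes are nearly level.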

How the data were processed

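RNA of 9 pools of dissected P180 midbrain was sequenced (3 pools per genotype, each of 3 mice according to the methods). The authors made directional libraries, trimmed the reads, mapped them to GRCm38.p4 and deposited whole-number counts per Ensembl gene, without normalization. Per the labels' processing notes, bcl2fastq 2.17, Trimmomatic 0.30 and DESeq2 1.10.1 were used. The aligner, counting tool, annotation release and strand setting are not given in the sources used here, and multi-mapped or overlapping reads may have been split in any way. The authors' 3 deposited tables of comparisons (fold changes and p-values from DESeq2) were not used.

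Symbols and positions came from GENCODE M21, in which 47310 of the 47729 identifiers had a gene. The main test was edgeR 4.0.16 (R 4.3.3, limma 3.58.1), quasi-likelihood, fitted to the 9 libraries together without covariates other than genotype, with TMM scaling, filterByExpr (17671 genes kept) and Benjamini-Hochberg adjustment over all genes kept, at 0.05. An SE is the log2 fold change divided by the root of the F statistic. CPM used the TMM library sizes, log2 CPM a prior count of 2. P-values measure the spread between pools. Every library was counted once, as no pair agreed within counting noise. The steps were tested on simulated counts, with the same spread for every gene and changes only in genes with higher counts. That checks the code and not how the fits behave for genes as low or as variable as the members. Alternatives were DESeq2 1.42.0 (all 9 libraries, or the 2 genotypes compared), edgeR on 2 genotypes, DESeq2 size factors, no filter, 10 counts in every library, a robust fit, the replicate number as a block, each library left out, and the longest transcript as length.

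The members, the lists and the tests were chosen with earlier results of these data known. The text names all 9 members, from each list the genes past the threshold or else the most abundant 2 or 3, the genes behind most counts of 5 or fewer, and the 3 genes most similar to each member kept. Other genes were named after their values had been seen. The most abundant genes of the subthalamic and mammillary list and of the oligodendrocyte list are not reported here. Kiss1 and Galr3 of the lists had no match and were not analysed here. Tables and figures were made with Python 3.11.15, pandas 2.3.3, numpy 2.4.6, scipy 1.17.1 and matplotlib 3.10.9.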

Additional observations from a re-analysis of the deposited data

How the results depend on the processing

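With edgeR on all 9 libraries 0 genes and 0 members were called in each comparison. In Dot1l(fl/+) with Dot1l(+/+), DESeq2 called 7 genes on all 9 libraries and 45 on the 2 genotypes, edgeR on the 2 genotypes called 1 (Gm42418), and the fit without Dot1l(fl/+) pools 1 and 3 together, added after seeing the data, called 247. That fit leaves 1 Dot1l(fl/+) library, assumed to vary like the other groups, so its calls compare a single library and not a genotype. Without the filter 251 genes and 4 members (Hcrt, Pmch, Trh and Fezf1) were called. With each library left out, 0 to 5 genes and 0 to 4 members were, the members only without Dot1l(fl/+) pool 2. In Dot1l(fl/fl) with Dot1l(+/+), the counts were 3 (Th, Slc6a3 and Slc18a2) and 8 with DESeq2, 4 (these and Ttr) with edgeR on the 2 genotypes, the same 4 without Dot1l(fl/+) pools 1 and 3, and 118 genes with 2 members (Pmch and Avp) without the filter. With each library left out they were 0 to 4 genes and 0 members. In Dot1l(fl/fl) with Dot1l(fl/+), DESeq2 called 11 genes and 8 genes, each with 1 member (Trh), the fit without Dot1l(fl/+) pools 1 and 3, with its single Dot1l(fl/+) library, called 189 genes, and no filter gave 164 genes and 5 members (Hcrt, Pmch, Trh, Fezf1 and Oxt). With each library left out, 0 to 12 genes and 0 to 4 members were called. Without the filter edgeR pooled the quasi-likelihood spread with 1253 prior degrees of freedom, against 7.35 with it, so the SE of Pmch in Dot1l(fl/+) with Dot1l(+/+) went from 1.10 to 0.17.

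The methods describe pools paired by nest, but nothing ties the replicate numbers to nests. Deviations of same-numbered libraries correlated by more than 0.1 in 6 of 9 pairs. The correlations lay at 0.289 to 0.317 for number 1 and at 0.0222 to 0.0898 for number 3. For 6 of 9 libraries the best correlate in both other genotypes had their own number. Whether the numbers pair the pools is thus not settled, and the main fit left them out because no label gives the pairing. With the replicate number as a block, 3 genes (Th, Slc6a3 and Slc18a2) were called in Dot1l(fl/fl) with Dot1l(+/+), 3 genes (Pmch, Ttr and Clic6), 1 of them a member, in Dot1l(fl/fl) with Dot1l(fl/+), and 0 genes in Dot1l(fl/+) with Dot1l(+/+).

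In Dot1l(fl/fl) with Dot1l(+/+), the log2 fold change turned for Pmch without Dot1l(+/+) pool 1 (0.75) and for Pomc without Dot1l(+/+) pool 3 (0.026). With each library left out it ran from -1.86 to 0.75 for Pmch and from -0.59 to 0.026 for Pomc. Pmch passed without the filter, and of the other values of Pmch, Trh, Pomc and Gal, 64 kept direction and side of the threshold and 4, from DESeq2 on the 2 genotypes, kept direction but had no adjusted p. With the longest transcript as length, the mean level moved by more than 1 SD for 3 of 27 values, to 1.78 CPM per kb for Pomc in Dot1l(fl/+) and to 0.182 for Hcrt and 0.118 for Agrp in Dot1l(fl/fl). The depth limits Hcrt, Oxt, Agrp and Fezf1, at 5 counts or fewer in all 6 pools of these genotypes.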
